A study of Mus musculus with 12 samples.

Results

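The circadian clock genes described here are 10 listed genes, namely Clock, Arntl, Per1, Per2, Per3, Cry1, Cry2, Nr1d1, Nr1d2 and Dbp, of 46103 genes in the deposited expression tables. They were taken by name, with numbered copies of a gene summed, and the list was drawn up as known clock genes with earlier results of these data in view, so it counts as selected on the RPKM of these 12 libraries. The p values below describe the fit and are not independent evidence. RNA was sequenced from 12 libraries of a mouse model of chronic myeloid leukemia (CML), each made from 100 sorted cells of bone marrow and spleen. In all 4 groups, bone marrow cells of 5FU-treated G0M mice, which carry a Cre-inducible marker of the G0 phase in a Rosa26 allele and Vav1-Cre, had been transduced with a BCR-ABL1 retrovirus that also encodes GFP and injected into lethally irradiated C57BL/6 recipients. The sorted cells were BCR-ABL1+ KSL cells (c-Kit+, Sca1+, lineage-negative). DP cells carried G0M and CD27 and are labelled CML stem cells, and SP cells carried CD27 without G0M and are labelled CML progenitors, both from vehicle-treated mice. IMDP and IMSP cells are the corresponding populations of mice that received imatinib, which blocks the BCR-ABL1 kinase, daily by gavage (40 mg/kg, starting at day 10 after transplantation). The mice in the study were female and 6 to 12 weeks old. There were 3 libraries per group. Whether they came from separate mice is not stated, so the spread between them may be partly technical, and the hour at which tissue was taken is not given in the sources used here.

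The mammalian clock is a transcriptional feedback loop that runs in nearly every cell with a period of about a day. CLOCK and ARNTL (BMAL1) bind E-box elements and activate the Per and Cry genes, whose proteins return to the nucleus and repress that activity. NR1D1 and NR1D2 (REV-ERB proteins) repress Arntl in a connected loop, and output factors such as DBP bind D-box elements. Per1 and Per2 are also acute response genes that can be induced by cAMP, growth factor and glucocorticoid signals. In blood, the clock is known for the daily release of hematopoietic stem cells from the bone marrow. A level averaged over sorted cells of unknown hour does not tell phase from amplitude.

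Expression was deposited as RPKM, reads per kb of transcript scaled to library depth, and values in RPKM are therefore per length. The totals behind the values lay between 11.4 M and 20.6 M reads, at which 1 read per kb equals 0.0486 to 0.0880 RPKM, and PCR copies were not marked, so read numbers cover counting error only. The 10 members held 1298 to 3200 reads per library. The sort was reflected in Mki67, a proliferation gene, at 14.7 ± 5.70 RPKM in DP and 8.16 ± 1.67 RPKM in IMDP cells against 54.2 ± 3.42 in SP and 61.1 ± 8.39 in IMSP cells (SD, n = 3). Ly6a, which encodes Sca1, was 1.42 higher on the log2 scale in G0M+ cells, that is DP and IMDP together, than in G0M- cells, that is SP and IMSP together (limma, adjusted p = 0.00544), and Kit, Cd27 and Cdkn1b (p27) passed the test in neither averaged comparison. Markers of other cell types were measured too. The summed level of 11 mast cell and basophil markers was 94.1 to 347.6 RPKM in DP and 27.2 to 210.4 in IMDP libraries, against 19.2 to 32.1 in SP and IMSP libraries, where Cma1, Mcpt4, Tpsb2 and Tpsab1 were at 0 (Tpsab1 in all 12 libraries). DP1 and IMDP1 held the highest mast cell sums of their groups. The macrophage markers C1qa, C1qb and C1qc were at 0 in all G0M- libraries, and the 10 macrophage markers summed to 9.64 to 21.1 RPKM in DP and 20.3 to 23.7 in IMDP against 3.85 to 9.15 in SP and 7.02 to 38.5 in IMSP libraries. With both treatments averaged, 8 of 8 tested erythroid markers were higher in G0M+ cells (median log2 difference 1.51, 1 passed), 9 of 9 HSC markers were higher (1.08, 3 passed) and 5 of 5 neutrophil markers were lower (-2.04, 3 passed). Of all tested genes, 36.6% were higher in this comparison, 5.32% were called higher and 21% were called lower. IMDP1 had the highest erythroid sum of the IMDP libraries (543.7 RPKM) and DP1 the highest neutrophil sum of the DP libraries (1424 RPKM). The part of these cell types in the member values was not tested.

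By median over the 12 libraries, Per1 was the most abundant member at 8.46 RPKM, followed by Nr1d2 at 3.81, Cry2 at 2.95, Per2 at 2.36, Cry1 at 2.13, Per3 at 1.60, Clock at 1.40, Nr1d1 at 1.13, Arntl at 0.466 and Dbp at 0.439 RPKM. Per1 exceeded Nr1d2 in 11 of 12 libraries and Nr1d1 exceeded Arntl in all 12. The steps in between were narrower, and Per2 was above Cry1 in 7, Per3 above Clock in 8, Clock above Nr1d1 in 8 and Arntl above Dbp in 8 of 12 libraries, so these neighbours in the order were not separated in every library. From the lowest to the highest library, Dbp varied most, 16.3-fold, followed by Per1 at 5.28-fold and Per3 at 4.27-fold, while Per2 varied least at 1.73-fold. The plot of the members by library shows these levels.

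**Figure D1:**
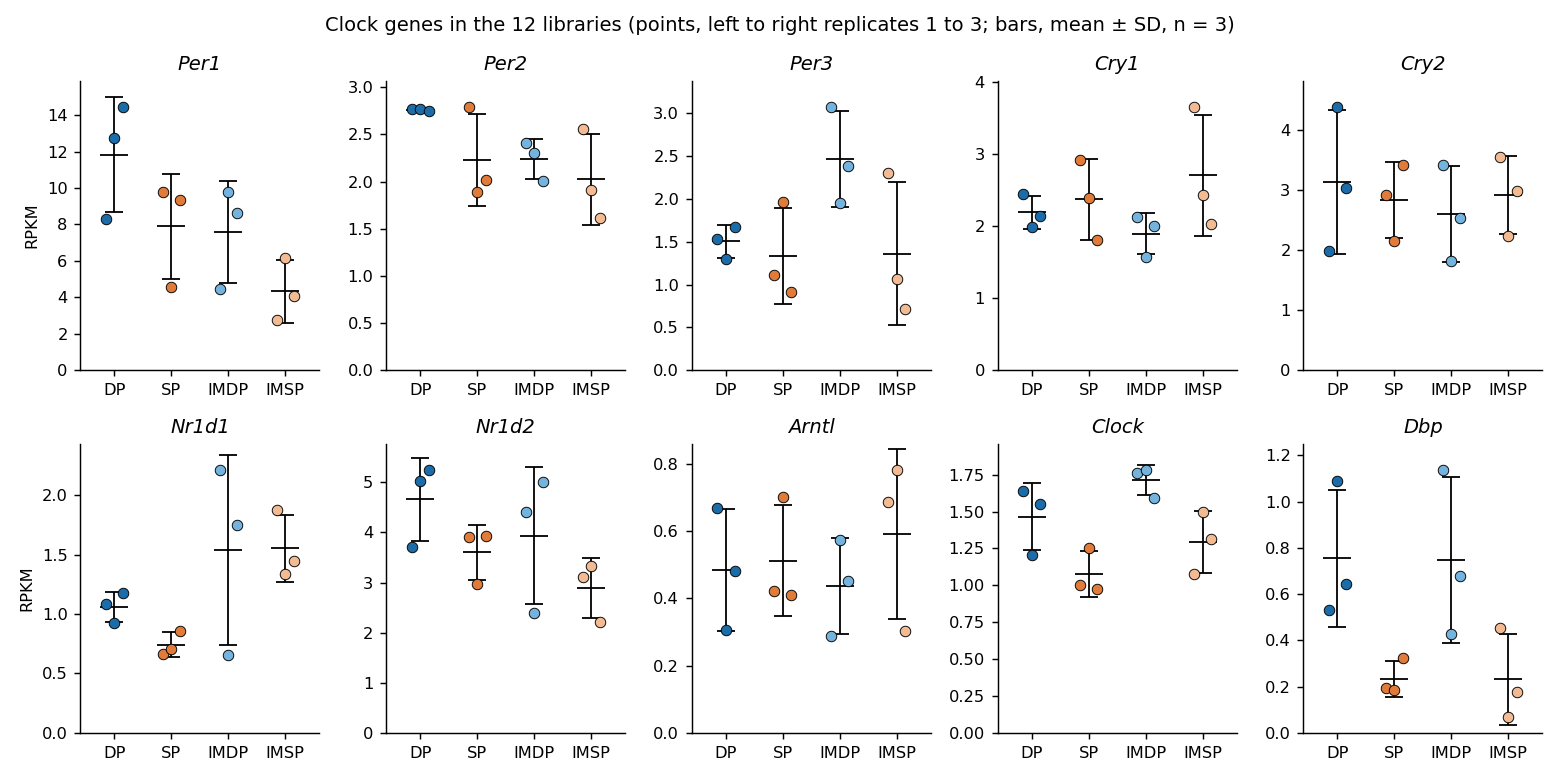
Expression of the 10 clock genes in RPKM (y axis, linear from 0) in DP, SP, IMDP and IMSP cells (x axis); points are libraries and bars the mean ± SD (n = 3). Per1 spans 2.73 to 14.4 RPKM with G0M+ groups above G0M- groups on average, and Dbp lies between 0.532 and 1.09 RPKM in DP against 0.187 to 0.324 in SP cells.

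A gene entered the limma fit on log2(RPKM + 0.1) when 3 or more libraries reached 1 RPKM. This held for 8 of the 10 members, while Arntl and Dbp did not pass and were fitted without the filter. None of the 8 tested members passed an adjusted p of 0.05 in any comparison. In DP against SP cells 0 of 8 passed, beside 2.26% of all 10072 tested genes, and 0 of 8 had an unadjusted p under 0.05. The corresponding count under imatinib, IMDP against IMSP, was 0 of 8 beside 25.6% of all genes, and Per3 had an unadjusted p under 0.05, as did 39.7% of all genes. With both treatments averaged 0 of 8 passed beside 26.3%, and Per1 and Clock had an unadjusted p under 0.05, as did 41.4% of all genes. For imatinib, 0 of 8 passed in IMDP against DP cells (0.367% of all genes; 0 at an unadjusted p under 0.05). In IMSP against SP cells 0 of 8 passed, and so did 0 of all genes (0%), of which 845 had an unadjusted p under 0.05, Nr1d1 and Per1 among them. With both populations averaged, 0 of 8 passed beside 0.854% of all genes, and Per1 and Nr1d1 had an unadjusted p under 0.05, as did 18.0% of all genes. The interaction of population and treatment was passed by 0 members and 0 genes (0%), with 937 genes and no member at an unadjusted p under 0.05. With limma-voom on recovered reads, 2 members passed in IMDP against IMSP (15.5% of all genes) and 5 in the averaged population comparison (24.8%), and 0 in each of the other comparisons. When all libraries were brought to 1 median, Clock (adjusted p = 0.0211), Per2 (0.0401) and Per3 (0.0487) passed in the averaged population comparison, beside 23.6% of all genes, and Per3 (0.0370) in IMDP against IMSP cells, beside 15.8%. Scaled to the reads on listed features, 4 of 8 (23.7% of all genes) and 2 of 8 (15.5%) passed in these comparisons. Scaling also moved the direction of the calls over all genes, of which 9.26% were higher in IMDP than IMSP cells without scaling and 40.8% with all libraries at 1 median, and 20.2% and 47.5% in the averaged population comparison. The median of the 8 tested members was 0.34 in DP against SP and 0.27 in IMDP against IMSP cells on the log2 scale, where the median of all genes tested was -0.02 and -0.25. The shift of all genes under imatinib means that a value near 0 there lies above the typical gene.

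**Figure D2:**
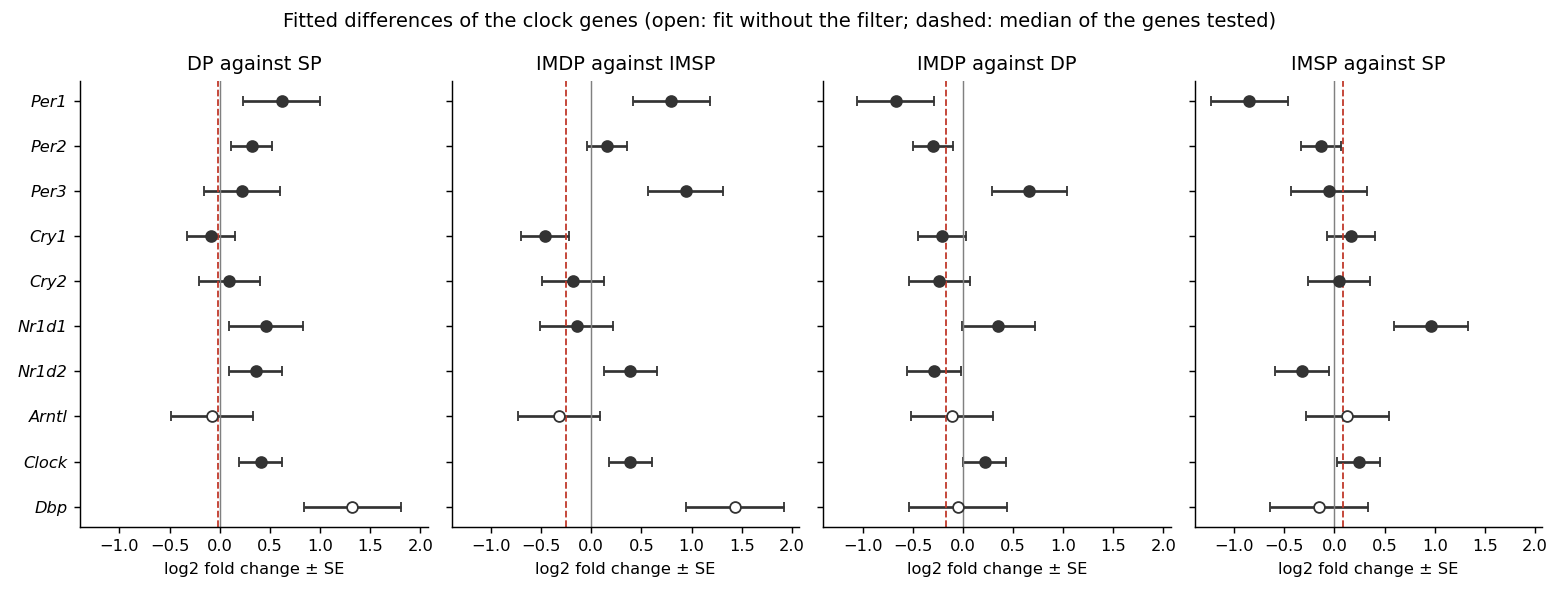
Fitted log2 fold change ± SE of the 10 clock genes (x axis) in 4 comparisons, with open points for Arntl and Dbp, fitted without the filter, and a dashed line at the median of the genes tested. Per1 lies at 0.62 and 0.80 in the population comparisons and at -0.67 and -0.85 in the imatinib comparisons, and Dbp at 1.32 and 1.43 in the population comparisons.

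The library numbers in the sample labels put each G0M+ library next to a G0M- library of the same treatment (DP1 with SP2, DP2 with SP3, DP3 with SP1, and IMDP and IMSP with equal replicate numbers), and the libraries of all 6 pairs deviated together from their group means across genes (r from 0.43 to 0.65). What a pair shares, a mouse, a sorting or a preparation, is not stated. With the pairs as a block, 1 of 8 members passed in DP against SP (9.73% of all genes), 2 of 8 in IMDP against IMSP (44.1%) and 3 of 8 with both treatments averaged (46.9%). The IMDP and IMSP libraries alone with their replicate number as a block also gave 2 of 8 (38.2% of all genes). All imatinib libraries have lower numbers than all vehicle libraries, so library order and treatment cannot be told apart.

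Clock, the histone acetyltransferase that forms the activator with ARNTL (chr5:76209868-76304792, GRCm38, GENCODE span, minus strand), was measured at 1.64, 1.21 and 1.55 RPKM in DP1 to DP3 and at 1.00, 1.25 and 0.977 RPKM in SP1 to SP3. It was measured at 1.76, 1.78 and 1.59 RPKM in IMDP1 to IMDP3 and at 1.07, 1.50 and 1.31 RPKM in IMSP1 to IMSP3. The IMDP libraries were all above the IMSP libraries, as in 39% of tested genes without overlap in either direction, while DP and SP overlapped, and in all 6 pairs the G0M+ library had more Clock, by 1.19- to 1.64-fold. With both treatments averaged its log2 fold change was 0.40 (SE 0.15; limma, adjusted p = 0.0697), and with the library pairs as a block the adjusted p was 0.0396. Among all tested genes, 11.3% favoured the G0M+ side in 6 of 6 pairs. Arntl (chr7:113207465-113314126, plus strand) reached 1 RPKM in no library. Its level was 0.670, 0.307 and 0.481 RPKM in DP1 to DP3 and 0.423, 0.702 and 0.409 RPKM in SP1 to SP3. Under imatinib it was 0.289, 0.574 and 0.451 RPKM in IMDP1 to IMDP3 and 0.688, 0.782 and 0.303 RPKM in IMSP1 to IMSP3, all on 21 to 68 reads. The 4 groups overlapped fully in Arntl, and its averaged population difference was -0.20 ± 0.29 (SE) on the log2 scale (limma without the filter, adjusted p = 0.686).

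Among the repressors, Per1 had the largest averaged population difference. Per1 (chr11:69095217-69109960, plus strand) was measured at 8.31, 12.7 and 14.4 RPKM in DP1 to DP3 and at 9.78, 4.58 and 9.33 RPKM in SP1 to SP3. Under imatinib it was 4.44, 9.76 and 8.60 RPKM in IMDP1 to IMDP3 and 2.73, 6.17 and 4.09 RPKM in IMSP1 to IMSP3. Group means under vehicle were 11.8 ± 3.16 (DP) and 7.89 ± 2.88 (SP) and under imatinib 7.60 ± 2.80 (IMDP) and 4.33 ± 1.73 (IMSP; SD, n = 3), and all 4 comparisons overlapped. Within the 6 library pairs, however, the G0M+ library was higher each time, by 1.36- to 2.11-fold. The averaged population difference of Per1 was 0.71 on the log2 scale (SE 0.27), or 1.63-fold, with an adjusted p of 0.0723 without the block and 0.000499 with it (limma). With the block, Per1 rose in DP against SP (0.62, adjusted p = 0.0233) and under imatinib in IMDP against IMSP cells (0.80, adjusted p = 0.00164), and over the IMDP and IMSP libraries alone with their replicate number as a block the adjusted p was 0.00360. Without a block, the averaged difference passed when DP1, IMDP1 or IMSP2 was left out (adjusted p = 0.0479, 0.0282 and 0.0373), and without both DP1 and IMDP1 it was 0.99 (adjusted p = 0.0172). DP1 and IMDP1 held the lowest Per1 of their groups, and IMSP2 held the highest of the IMSP libraries. Leaving out any of them therefore raises the difference by construction, and these fits do not test the mast cell markers. Without IMDP1 alone, IMDP against IMSP also passed, with 1.14 and an adjusted p of 0.0480.

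Per1 was also lower in imatinib than in vehicle libraries on average, but without passing the test. The averaged difference was -0.76 (SE 0.27), with adjusted p = 0.174 (limma). It was -0.67 in IMDP against DP (adjusted p = 0.351) and -0.85 in IMSP against SP cells (adjusted p = 0.589), and these comparisons overlapped in both populations. The 2 tested genes most like Per1 over the 12 libraries were Zcchc6 (Pearson r = 0.979) and Smad7 (r = 0.969); the libraries share the 4 groups and their depth, so this is a description of the pattern.

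Per2 (chr1:91415982-91459324, minus strand) was 2.77, 2.78 and 2.74 RPKM in DP1 to DP3, 2.79, 1.89 and 2.02 in SP1 to SP3, 2.41, 2.31 and 2.01 in IMDP1 to IMDP3 and 2.56, 1.91 and 1.61 in IMSP1 to IMSP3. The DP libraries lay within 0.1 RPKM of each other and all above the IMDP libraries, as in 23.6% of tested genes without overlap in that comparison, and the difference of -0.29 (SE 0.20) had an adjusted p of 0.432 (limma). Per2 was higher on the G0M+ side in 4 of 6 pairs, with an averaged population difference of 0.24 (SE 0.14; limma, adjusted p = 0.220). Per3 (chr4:151003652-151044665, minus strand, inside the longer span of Camta1) was 1.53, 1.30 and 1.67 RPKM in DP1 to DP3 and 1.12, 1.96 and 0.916 in SP1 to SP3. Under imatinib it was 3.07, 1.96 and 2.38 RPKM in IMDP1 to IMDP3 and 2.30, 1.06 and 0.719 in IMSP1 to IMSP3. All IMDP libraries exceeded all DP libraries, yet the difference of 0.66 (SE 0.38) had an adjusted p of 0.345 (limma), and IMDP and IMSP overlapped through IMSP1. IMDP against IMSP differed by 0.94, or 1.92-fold, with an adjusted p of 0.0852, which became 0.0300 without IMSP1, where the difference was 1.37, and 0.0189 with the library pairs as a block. With both treatments averaged, Per3 differed by 0.58 (adjusted p = 0.121 without and 0.0313 with the pair block, and 0.0357 without IMSP1). Since IMSP1 held the highest Per3 of the IMSP libraries, leaving it out raises both differences by construction. The files list Per3 as 2 numbered copies, and copy 2 held reads in 4 libraries only, 20 in DP1, 51 in SP2, 76 in IMDP1 and 14 in IMDP2.

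Of the cryptochromes, Cry1 (chr10:85131700-85185064, minus strand) was 2.45, 1.99 and 2.15 RPKM in DP1 to DP3, 2.92, 2.39 and 1.80 in SP1 to SP3, 2.12, 1.57 and 2.00 in IMDP1 to IMDP3 and 3.65, 2.44 and 2.03 in IMSP1 to IMSP3. It was the tested member with the largest difference towards G0M- cells, -0.27 (SE 0.17; limma, adjusted p = 0.240), and in 2 of 6 pairs the G0M+ library had more of it. Cry2 (chr2:92403646-92434043, minus strand) was 1.98, 4.38 and 3.04 RPKM in DP1 to DP3, 2.92, 2.15 and 3.41 in SP1 to SP3, 3.42, 1.83 and 2.54 in IMDP1 to IMDP3 and 3.54, 2.24 and 2.98 in IMSP1 to IMSP3. Its groups overlapped in all comparisons. Its averaged population difference was -0.04 (SE 0.22; limma, adjusted p = 0.897), which became 0.11 when all libraries were brought to 1 median.

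The promoter windows of the members were searched for clock elements, since DBP, measured below, acts at D-boxes and CLOCK at E-boxes. RefSeq windows (GRCm38.p6) were available for 9 of the 10 members, 13 windows in all, and the 250 bases before each start were searched on both strands for the E-box CACGTG and the D-box TTATGTAA or TTATGCAA. Of 32851 RefSeq promoter windows of this length, 6.02% hold the E-box and 1.5% the D-box. Per1 held both, with an E-box at -166 and a D-box at -24, Per3 held D-boxes at -205 and -158, and Cry1 held an E-box at -60, counted from the annotated start to the left end of the match. The other 10 windows held neither. A link between these matches and the expression differences was not tested. The 3 windows with a match are shown, with matches in capitals, at chr11:69098699-69098948 (plus strand), chr4:151044666-151044915 (minus strand) and chr10:85185055-85185304 (minus strand).
Per1: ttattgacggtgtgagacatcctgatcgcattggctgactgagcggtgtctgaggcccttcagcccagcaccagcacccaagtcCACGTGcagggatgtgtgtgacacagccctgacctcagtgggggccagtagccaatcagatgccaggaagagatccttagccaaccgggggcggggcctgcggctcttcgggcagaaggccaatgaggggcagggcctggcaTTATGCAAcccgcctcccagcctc
Per3: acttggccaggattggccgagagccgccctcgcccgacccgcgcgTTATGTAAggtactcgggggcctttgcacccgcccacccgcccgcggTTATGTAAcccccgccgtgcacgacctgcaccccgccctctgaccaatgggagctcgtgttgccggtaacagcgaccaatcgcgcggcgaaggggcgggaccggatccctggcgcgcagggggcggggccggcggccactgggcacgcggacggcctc
Cry1: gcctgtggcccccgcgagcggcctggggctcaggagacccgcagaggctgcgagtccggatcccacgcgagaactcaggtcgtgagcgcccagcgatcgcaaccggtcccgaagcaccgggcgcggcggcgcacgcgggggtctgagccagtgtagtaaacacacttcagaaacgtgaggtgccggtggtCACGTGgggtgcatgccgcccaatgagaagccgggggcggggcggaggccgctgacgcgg
A match is a run of letters and not a measured site, and no binding was measured here.

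In the second loop, Nr1d1 (chr11:98767932-98775333, minus strand) was 1.09, 0.924 and 1.17 RPKM in DP1 to DP3 and 0.668, 0.704 and 0.860 in SP1 to SP3. Under imatinib it was 2.21, 0.656 and 1.75 RPKM in IMDP1 to IMDP3 and 1.87, 1.34 and 1.45 in IMSP1 to IMSP3. DP lay above SP in every library, beside 22.4% of tested genes without overlap, and IMSP lay above SP in every library, beside 13.8%. IMDP2 was the lowest of all 12 libraries. IMSP against SP differed by 0.96 (SE 0.37), or 1.95-fold, with an adjusted p of 0.516 (limma), and imatinib against vehicle averaged over both populations by 0.66 (SE 0.26; adjusted p = 0.211). Without IMDP2 the averaged imatinib difference was 0.90, with an adjusted p of 0.0421 (limma). Since IMDP2 held the lowest Nr1d1, leaving it out raises this difference by construction. These values rest on 27 to 91 reads, and the last 1075 bases of the span (98767932 to 98769006) are shared with Thra on the opposite strand, a thyroid hormone receptor gene at 2.13 to 5.18 RPKM. The library kit does not mark strand, so reads in the overlap cannot be assigned, and Thra itself differed by 0.19 for imatinib (limma, adjusted p = 0.640).

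Nr1d2 (chr14:18204054-18239127, minus strand), the more abundant REV-ERB gene, was 3.71, 5.03 and 5.24 RPKM in DP1 to DP3, 3.91, 2.97 and 3.94 in SP1 to SP3, 4.40, 2.39 and 5.01 in IMDP1 to IMDP3 and 3.12, 3.34 and 2.21 in IMSP1 to IMSP3. The G0M+ side was higher in 5 of 6 pairs, the pair of IMDP2 and IMSP2 being the exception at 0.716-fold. Its averaged population difference was 0.37 (SE 0.19; limma, adjusted p = 0.155), and 0.53 with an adjusted p of 0.0345 without IMDP2. Since IMDP2 held the lowest Nr1d2 of the IMDP libraries, leaving it out raises this difference by construction. Nr1d1 and Nr1d2 differed in the direction of their averaged imatinib difference, 0.66 against -0.31, and neither passed the test.

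Dbp (chr7:45705088-45710203, plus strand), a direct output of CLOCK and ARNTL, was low but had the largest population ratio of the 10 genes. It was 0.532, 1.09 and 0.643 RPKM in DP1 to DP3 and 0.193, 0.187 and 0.324 RPKM in SP1 to SP3. Under imatinib it was 1.14, 0.427 and 0.679 RPKM in IMDP1 to IMDP3 and 0.451, 0.0698 and 0.177 RPKM in IMSP1 to IMSP3. The reads behind these levels numbered 21, 43 and 24 in DP1 to DP3, 10, 8 and 11 in SP1 to SP3, 37, 16 and 29 in IMDP1 to IMDP3 and 20, 2 and 6 in IMSP1 to IMSP3. DP did not overlap SP, beside 22.4% of tested genes without overlap, and IMDP2 lay below IMSP1. In all 6 library pairs the G0M+ library was higher, by 2.52- to 6.11-fold, beside 11.3% of tested genes higher in all 6. In the fit without the filter, Dbp rose by 1.38 on the log2(RPKM + 0.1) scale in G0M+ cells with both treatments averaged (SE 0.34; limma, adjusted p = 0.0242), or 2.60-fold, a comparison that called 13.8% of 16776 genes. At these low levels the size depends on the pseudocount and method, and it was 0.50 with 1 RPKM, 1.75 with 0.01 RPKM and 1.90 with limma-voom, with adjusted p of 0.0235, 0.0290 and 0.0133. The call was lost when DP2, DP3, SP1, SP2 or IMDP3 was left out, with differences of 1.24 to 1.41 and adjusted p of 0.0627, 0.0547, 0.0609, 0.0628 and 0.0516, and it had an adjusted p of 0.00254 with the pair block. Without both DP1 and IMDP1 the difference was 1.31 (adjusted p = 0.0455). DP against SP (1.32, adjusted p = 0.350) and IMDP against IMSP (1.43, adjusted p = 0.0786) passed only with the pair block, at 0.0490 and 0.00851. Imatinib against vehicle was -0.10 (SE 0.34; adjusted p = 0.911). The end of Dbp (45709467 to 45710203) overlaps Sphk2 on the opposite strand, which was at 2.15 to 3.66 RPKM and differed by -0.30 between the populations (limma, adjusted p = 0.115), opposite in sign to Dbp.

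**Figure D3:**
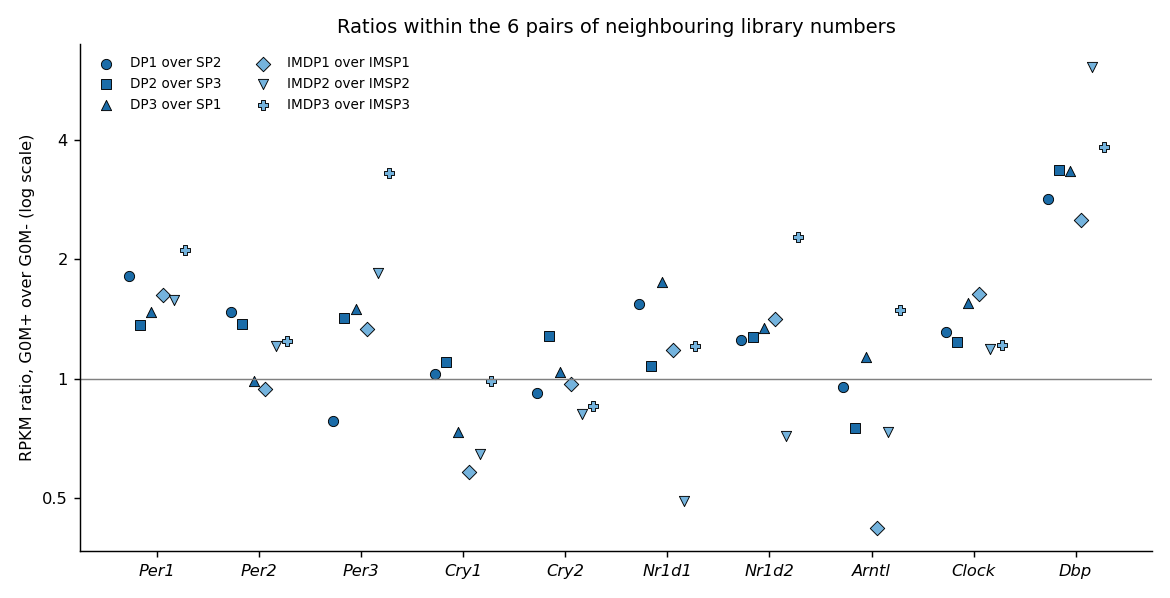
RPKM ratio of the G0M+ over the G0M- library (y axis, log scale) for the 10 clock genes (x axis) in the 6 pairs of neighbouring library numbers, with vehicle pairs dark and imatinib pairs light. Per1, Clock and Dbp lie above 1 in all 6 pairs, with medians of 1.60, 1.27 and 3.35, whereas Cry1, Cry2 and Arntl do so in 2 of 6. Of all tested genes, 11.3% lie above 1 in all 6 pairs.

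The remaining DNA-binding factors of the clock were examined next. Of 11 listed paralogs and partners, 4 were tested, and Tef, like Dbp a PAR bZIP factor of the D-box, rose in G0M+ cells (1 of 4, beside 5.32% of all genes called higher with both treatments averaged). Tef was 2.39 ± 0.752 RPKM in DP against 1.67 ± 0.409 in SP cells and 2.81 ± 0.322 in IMDP against 1.61 ± 0.448 in IMSP cells (SD, n = 3), with a difference of 0.79 in IMDP against IMSP (limma, adjusted p = 0.0446) and of 0.63 with both treatments averaged (adjusted p = 0.0275). The other PAR bZIP factor, Hlf, an HSC regulator, was 3.40 ± 2.80 RPKM in DP against 2.33 ± 1.59 in SP cells and 10.5 ± 0.529 in IMDP against 5.15 ± 1.73 in IMSP cells. The G0M+ side was higher in 6 of 6 pairs, beside 11.3% of tested genes. Without the block, the averaged population difference of Hlf of 0.73 (limma, adjusted p = 0.180) and its imatinib difference of 1.60 (adjusted p = 0.0724) did not pass. With the library pairs as a block the population difference of Hlf passed (adjusted p = 0.00150), as did that of Bhlhe40 (1.04, adjusted p = 0.00349), so that 3 of 4 were called higher, beside 13.4% of all genes. Bhlhe40, an E-box repressor, varied strongly between libraries, at 45.9 ± 28.4 RPKM in DP and 8.49 ± 10.7 RPKM in IMSP cells, and did not pass without the block (imatinib, -2.02; adjusted p = 0.109). Nfil3, which opposes DBP at D-boxes, differed by -0.05 between the populations (adjusted p = 0.944). Among the genes that were not tested were the alternative partners Npas2 and Arntl2, the receptors Rora and Rorb, and Bhlhe41 and Ciart.

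Genes that act on clock proteins were called lower in IMDP against IMSP cells about as often as all genes, of which 23.3% were called lower and 2.37% higher. Of 16 kinases, ligases and phosphatases, 14 were tested and 4 fell in IMDP against IMSP cells (0 rose), beside a list median of -0.26 and a median of all genes of -0.25. The phosphatase gene Ppp1ca fell by 0.87 (limma, adjusted p = 0.00486), the casein kinase 2 subunit gene Csnk2b by 0.65 (adjusted p = 0.0415), the F-box gene Fbxw11 by 0.45 (adjusted p = 0.0358) and the deubiquitinase gene Usp7 by 0.40 (adjusted p = 0.0440). Of 18 chromatin and RNA cofactors, all tested, 3 fell in IMDP against IMSP cells and 0 rose (list median -0.32), with Ddb1, a ligase adaptor, at -0.62 (adjusted p = 0.00817), Nono, a PER-binding protein gene, at -0.51 (adjusted p = 0.0262) and Thrap3 at -0.44 (adjusted p = 0.0475), and Wdr5 fell by 0.36 with both treatments averaged (adjusted p = 0.0368). With the library pairs as a block, 6 of 14 and 9 of 18 were called lower, beside 35.9% of all genes. With all libraries at 1 median, Ppp1ca (-0.60, adjusted p = 0.00840) and Ddb1 (-0.35, adjusted p = 0.0331) still passed in IMDP against IMSP cells and Csnk2b, Fbxw11, Usp7, Nono, Thrap3 and Wdr5 no longer did. With reads on listed features or limma-voom, Csnk1e, a casein kinase 1 gene, was called higher (0.66 and 0.68, adjusted p = 0.0493 and 0.0448). Under each of the scalings and limma-voom, 1 of 18 cofactors was called higher and 1 lower in IMDP against IMSP cells. In these fits 647 to 826 of all 10072 genes were called higher. In the fit without scaling or block, neither list had a gene past the test in DP against SP cells or for imatinib in either population.

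Of 16 clock-controlled output genes, 15 were tested and 1 rose and 1 fell with both treatments averaged, beside 5.32% of all genes called higher and 21% called lower. Id2, an inhibitor of bHLH factors, was 6.57 ± 2.92 RPKM in DP against 1.67 ± 0.391 in SP cells, a rise of 1.85 (limma, adjusted p = 0.0330), and rose by 1.46 with both treatments averaged (adjusted p = 0.00497). Wee1, a kinase gene that holds cells before mitosis, fell by 0.54 with both treatments averaged (adjusted p = 0.0427). Nampt, of NAD synthesis, fell by 0.52 in IMDP against IMSP cells (adjusted p = 0.0441). With all libraries at 1 median, Wee1 and Nampt no longer passed, Id2 did, and Por, the P450 reductase gene, was called higher with both treatments averaged (0.29, adjusted p = 0.0382). Under each of the scalings and limma-voom 11 of 15 were higher with both treatments averaged. In these fits 2 to 3 were called higher and 0 lower, beside 1131 to 1379 of all 10072 genes called higher. The pair block called 4 higher and 3 lower (13.4% of all genes called higher, 46.9% in either direction). It called 3 higher and 1 lower in DP against SP cells (9.73%) and 2 higher and 4 lower in IMDP against IMSP cells (44.1%). Alas1, which did not pass without the block, fell by 1.64 with both treatments averaged (limma, adjusted p = 0.000227). Klf9, a glucocorticoid-induced Krüppel-like factor, was 5.52 ± 0.708 RPKM in DP and 4.40 ± 0.664 in SP cells, against 2.65 ± 0.727 in IMDP and 2.31 ± 0.188 in IMSP cells. It fell by 0.97 with imatinib averaged over both populations (adjusted p = 0.0129) and by 1.06 in IMDP against DP cells (adjusted p = 0.0468), the latter at 0.101 with all libraries at 1 median. In the 4 lists of clock partners, modifiers, cofactors and outputs, Klf9 was the 1 gene called for imatinib.

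The acute response lists, to which Per1 also belongs, were read beside Per1. Of 14 glucocorticoid-induced genes, 13 were tested, including Per1 and Klf9. With both treatments averaged, 11 of 13 were higher in G0M+ cells and 1 passed, Irs2, an insulin receptor substrate gene, which rose by 1.06 (limma, adjusted p = 0.00538). Of all tested genes, 36.6% were higher in this comparison and 5.32% were called higher. With the library pairs as a block 8 of 13 were called higher, Per1 among them, beside 13.4% of all genes. Limma-voom called 4 higher, beside 1379 of all 10072 genes. With imatinib 3 of 13 were higher, beside 42.4% of all genes, and Klf9 alone passed. The list median was -0.67, beside -0.05 for all genes tested. Of 10 immediate-early genes, all tested, 10 were higher in G0M+ cells with both treatments averaged and 0 were higher with imatinib, at a list median of -1.33. In the fit without scaling or block, only Fosb, an AP-1 subunit gene, passed in each of these averages. Its difference was 0.75 in G0M+ cells (limma, adjusted p = 0.0182) and -1.24 with imatinib (adjusted p = 0.0210). Of all genes, 5.32% were called higher in G0M+ cells and 0.606% lower with imatinib. Limma-voom called 2 of 10 higher in G0M+ cells, beside 1379 of all 10072 genes. With the library pairs as a block 8 of 10 were called higher in G0M+ cells, again beside 13.4% of all genes. Summed over the 10 genes, the immediate-early level was 404.4 to 601.2 RPKM in DP and 206.8 to 467.5 in SP libraries, against 170.03 to 260.7 in IMDP and 83.5 to 257.3 in IMSP libraries. Whether these genes and Per1 moved together for a shared reason was not tested.

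**Figure D4:**
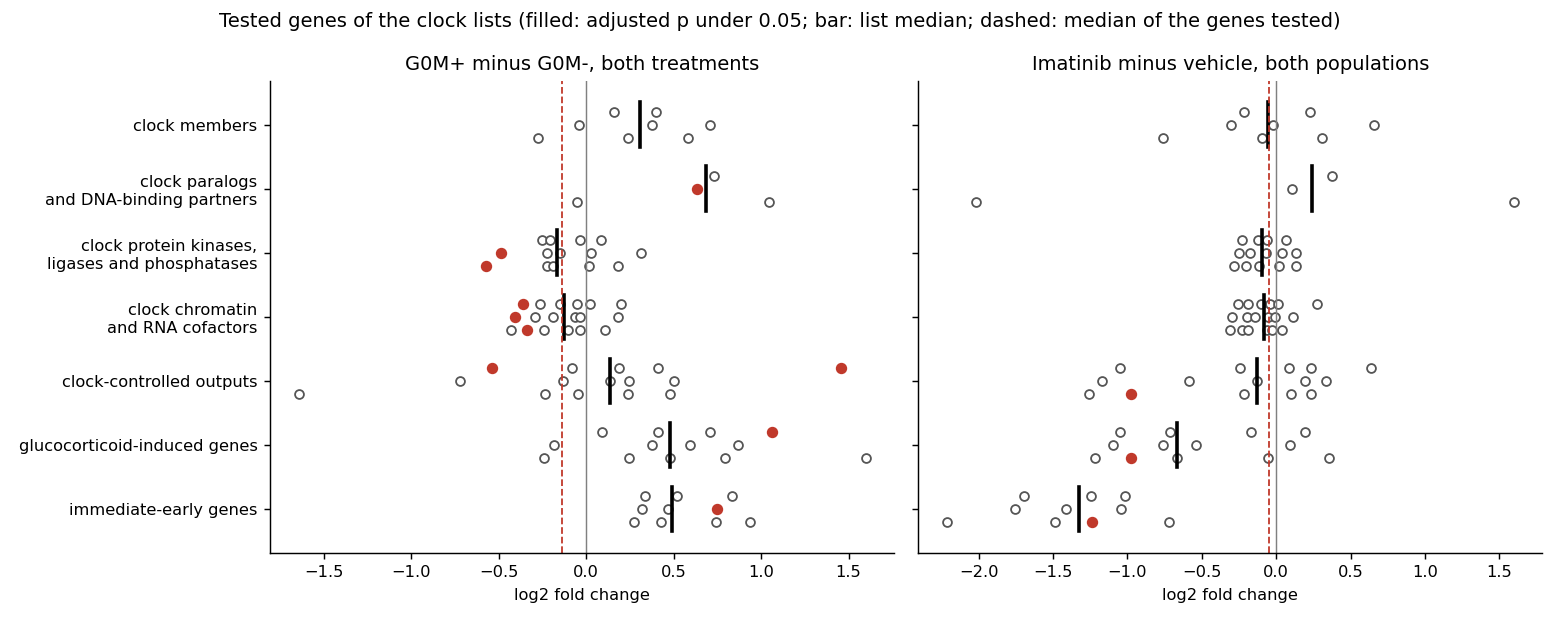
Log2 fold change (x axis) of the tested genes of the clock members and 6 related lists (y axis) for G0M+ minus G0M- cells and for imatinib minus vehicle, with filled points for genes past the adjusted threshold, bars at list medians and a dashed line at the median of the genes tested. The 8 clock members have medians of 0.31 and -0.06 with no filled point, and the immediate-early genes lie at medians of 0.49 and -1.33.

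The patterns of the remaining members over the 12 libraries were most like those of Cmpk2 (r = 0.908) and Flcn (0.902) for Per2, Ifi35 and Pts (both 0.848) for Per3, Mat2b (0.892) for Cry1, and Coro1a (0.863) and Mark3 (0.845) for Cry2. They were most like Fam219b (0.974) and Erap1 (0.935) for Nr1d1, Gm5111 (0.902) and Map7 (0.886) for Nr1d2, and Hgf (0.924) and Tbc1d24 (0.909) for Clock.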

How the data were processed

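The authors sequenced RNA of 100 sorted cells per library on a NextSeq system, mapped reads to GRCm38/mm10 (the methods name CLC Genomics Workbench, the reporting summary HISAT2 and featureCounts) and used edgeR for statistics; they deposited RPKM values, 1 per feature and library. The deposited RPKM lie on steps of single reads, so the reads were recovered: of 16584 features above 0 in at least 2 libraries, 16581 gave whole reads in every library (tolerance 0.01). Library totals lay between 11.4 M and 20.6 M reads. Numbered copies of a gene were summed. The members and lists were chosen with earlier results of these data known.

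Genes with at least 1 RPKM in 3 libraries (10072) were fitted by limma (version 3.58.1, R version 4.3.3) to log2(RPKM + 0.1) as 4 group means over 12 libraries with a variance trend. Benjamini-Hochberg adjustment ran over all genes (threshold 0.05). The comparisons were 4 pairwise ones, the population and treatment averages and their interaction. Arntl and Dbp, below the filter, were fitted over all 16776 genes above 0. The fit was tested on simulated data. Genes named are the 10 members, up to 4 genes per other list with the smallest adjusted p, sort markers, genes overlapping a member and, for each tested member, the 2 genes with the highest Pearson r, of which some are not reported here. Csnk1e, Por and Alas1 were named after their values were seen. Replicate numbers paired IMDP with IMSP libraries (r of deviations 0.43 to 0.65) and not DP with SP libraries (-0.30 to -0.10), where the neighbouring library numbers in the labels did (0.50 to 0.52). Alternatives changed the pseudocount, filter, scaling, copies, libraries or block, or used limma-voom. The block over IMDP and IMSP libraries alone, the fit without both DP1 and IMDP1 and the fit of Arntl and Dbp without the filter were added after seeing the data. Gene spans came from GENCODE M21 and promoter windows from RefSeq (GRCm38.p6). Per2 had no window. Tables were made with pandas 2.3.3 and numpy 2.4.6 under Python 3.11.15, and plots with matplotlib 3.10.9.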

Additional observations from a re-analysis of the deposited data

How the results depend on the processing

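Counts of members past the threshold were 0 in every comparison and stayed at 0 in 66 of 79 refits other than those that left out 1 library. In DP against SP cells the library-number pair block called 1 (Per1). In IMDP against IMSP cells 1 was called with all libraries at 1 median, 2 per reads on listed features, 2 with limma-voom, 2 with either block (pairs, or the replicate block over these libraries alone), 1 without both DP1 and IMDP1, and 0 to 1 without 1 library each. Averaged over treatments, 3 were called with all libraries at 1 median, 4 per reads on listed features, 5 with limma-voom, 3 with the pair block, 1 (Dbp) without the filter, 1 without both DP1 and IMDP1, and 0 to 1 without 1 library each. Over all genes these fits called 23.6%, 23.7%, 24.8% and 46.9% for the scalings, limma-voom and the pair block averaged over treatments, and 15.8%, 15.5%, 15.5% and 44.1% in IMDP against IMSP cells. Averaged imatinib differences gave 0 to 1 without 1 library each. The replicate block over all 12 libraries called 0 members in each comparison, and same-numbered DP and SP libraries correlated at -0.30 to -0.10. The cause of these changes was not tested. The median of all genes in IMDP against IMSP cells was -0.25 without scaling. It was 0.02 with all libraries at 1 median, 0.06 per reads on listed features and 0.07 with limma-voom.

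Of 23 member differences printed in the report, Cry2 averaged over treatments changed sign, to 0.11, 0.14 and 0.14 under the scalings to 1 median, to the reads on listed features and with limma-voom, and ranged from -0.18 to 0.098 without 1 library each. Dbp for imatinib ranged from -0.32 to 0.10 without 1 library each. Of 37 differences that were only plotted, 19 changed sign in at least 1 refit, none of them over 0.29 in size. Arntl and Dbp rest on few reads, at most 68 and 43 per library, and hold little precision at this depth.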
